A study of Mus musculus with 2 samples.

Results

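The distal microRNA cluster of the imprinted Dlk1-Dio3 region was described in the developing mouse face. Its members are a list of 30 plus-strand microRNA genes of chromosome 12, from Mir379 to Mir410. The rule goes by gene name and strand. Mir496a, Mir299a, Mir380, Mir376a and Mir409 lie in the same stretch and strand and are given apart. Of the 30 genes listed, 29 had a row among the 1973 microRNA loci of the count tables, and Mir376b was not analysed here. The tissue was the facial prominence of B6NCrl mouse embryos at 11.5 days, sampled by small-RNA sequencing. There was 1 group of 2 biological replicates, each a pool of embryos of both sexes, 109 in replicate 1 and 88 in replicate 2. The labels give no treatment, no allele and no second tissue, both pools carry 1 donor entry, and whether their dissections were separate is not stated. The data therefore describe levels within 1 tissue and their repeatability between 2 pools, and no test between conditions exists.

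MicroRNAs are cut from hairpin precursors, and either arm of a hairpin (5p or 3p) can be loaded into an Argonaute protein, where the seed, bases 2 to 8, chooses target messenger RNAs. Genes of this cluster are transcribed from the maternal chromosome only, as parts of a long non-coding transcript downstream of Meg3 and Rian, and many hairpins are processed from it. They are best known from brain, where neuronal activity raises the transcript and where miR-134 limits the size of dendritic spines, and mice lacking the cluster adapt poorly to the metabolic demands of birth. The hairpins resemble each other and are held to descend from repeated duplication. Several of them are edited from A to I, a change that counts per gene do not show.

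Sequences of the most abundant members are shown first, because their seeds define the families used below. They come from RefSeq (GRCm38.p6), which held 56 mature arms for all 30 listed genes and 29 of their hairpins. It held no arm for miR-376c-3p, miR-485-5p, miR-487b-3p or miR-539-3p, so the seeds and shared runs of these arms were not compared. The letters are written 5′ to 3′ with the seed in capitals.
miR-411-5p: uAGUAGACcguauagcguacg
miR-379-5p: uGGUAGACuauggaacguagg
miR-1193-5p: uGGUAGACcggugacguaca
miR-411-3p: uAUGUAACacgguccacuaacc
miR-379-3p: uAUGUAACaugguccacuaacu
miR-487b-5p: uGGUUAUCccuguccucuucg
miR-382-5p: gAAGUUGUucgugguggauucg
miR-541-5p: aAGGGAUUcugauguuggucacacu
miR-369-3p: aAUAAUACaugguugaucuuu
miR-381-3p: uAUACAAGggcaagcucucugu
miR-300-3p: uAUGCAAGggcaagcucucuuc
miR-154-3p: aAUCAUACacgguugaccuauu
The 5p arms of Mir379 and Mir1193 share a full seed, and miR-411-5p shares their inner GUAGAC. The 3p arms of Mir379 and Mir411 share a second seed. The 3p arms of Mir300 and Mir381 differ in the seed but have a run of 16 bases in common. The 56 arms held 51 distinct seeds, so within the cluster most of these arms were alone in their seed.

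The tables give raw counts per gene with both arms added together, so a level belongs to a hairpin and cannot be split between 5p and 3p. Sense counts over all loci summed to 1941745 (replicate 1) and 2319881 (replicate 2). Levels are given as CPM (sense counts scaled to 1000000 per library), where 1 count is 0.515 and 0.431 CPM. Arms of these members were 19 to 25 bases long, with a median of 22, and a read covers about a whole arm, so CPM was not divided by length. Errors are SD over n = 2, intervals are 95% and, unless stated, cover counting error only. Below, a pair of values for 1 gene gives replicate 1 first. Reads placed at several positions, 32.9% and 33.3% of the mapped reads, are in no locus of the deposited tables, so the likeness of each arm to other hairpins was checked. The longest run shared with another listed hairpin had a median of 11 bases over the arms. It was 18 bases for miR-376b-5p and miR-376c-5p, 16 for miR-300-3p and miR-381-3p, and under 14 for the other 52 arms.

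Nearly the whole cluster was detected in the face, with levels that spanned several orders of magnitude. Its members held 98113 counts, or 5.05% (exact Clopper-Pearson interval 5.02% to 5.08%), in replicate 1 and 123397 counts, or 5.32% (5.29% to 5.35%), in replicate 2. The mean share was 5.19% ± 0.188. In all, 28 of the 29 measured members reached at least 10 counts in both libraries, against 17.8% of all loci in the tables. The exception was Mir654, which had 0 counts in both, and 0 allows a level of up to 1.55 and 1.29 CPM. The median over members was 471 and 512 CPM. By mean level, 11 members lay over 1000 CPM, 14 between 100 and 1000 CPM, and 4 under 100 CPM. Of 21 proximal Dlk1-Dio3 loci listed around Rtl1, 18 were measured. These 18 held 2.09% and 2.20% of the sense counts, with medians of 487 and 537 CPM, and 14 of them reached the minimum. Listed loci that were not measured are not in this share. Their most abundant loci were Mir431, Mir127 and Mir433, at 7153 ± 948, 4858 ± 18.3 and 1675 ± 197 CPM.

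**Figure D1:**
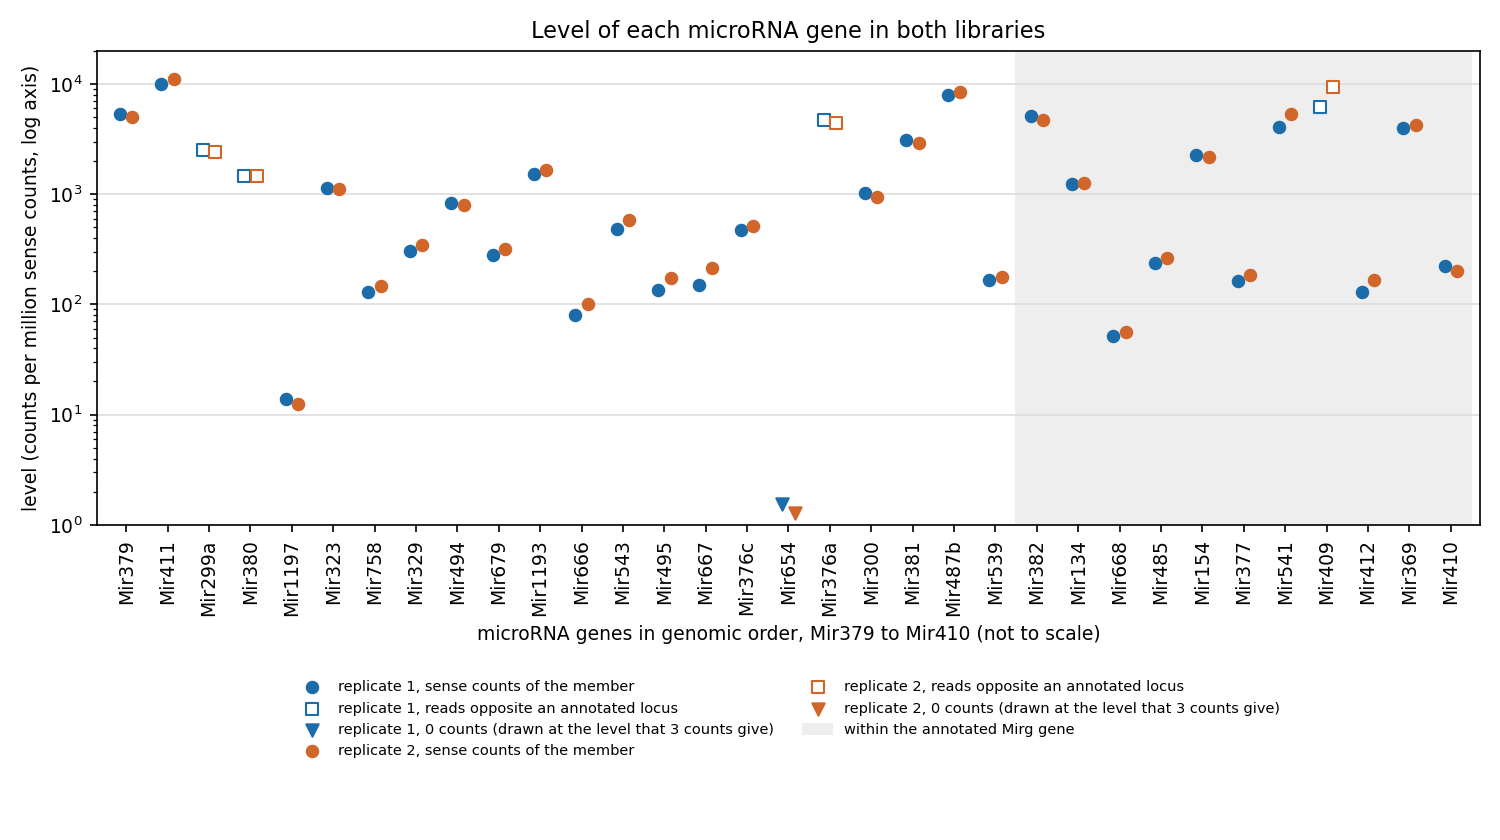
Level of each microRNA gene (CPM, log axis) in genomic order from Mir379 to Mir410, with replicate 1 in blue and replicate 2 in orange. Circles are sense counts of the members, squares are reads opposite an annotated minus-strand locus, triangles mark 0 counts at the level that 3 counts give, and the grey field marks genes within Mirg; levels of the detected members span from Mir1197 at 13.2 CPM to Mir411 at 10487 CPM.

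Mir411 was the most abundant member. It lies at chr12:109710175-109710256, outside any annotated part of Mirg, and had 9884 and 11091 CPM from 19192 and 25729 counts. Mir487b (chr12:109727333-109727414) followed at 7919 and 8426 CPM. These members held the first and the second place in both libraries, Mir411 exceeded Mir487b by a log2 difference of 0.36, and the values of the pools did not overlap. Members next to each other in the order of levels were taken as separate where their log2 difference, in both libraries, was wider than the shift of each gene from one pool to the other. By this rule Mir411 stood above Mir487b, and Mir487b above Mir379 by 0.66.

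The next places were held by a group in which neighbours in the order were not separate. Mir379 (chr12:109709060-109709125), the first hairpin of the cluster, had 5346 and 5025 CPM. Mir382 (chr12:109733771-109733846) had 5141 and 4736 CPM. Mir541 (chr12:109742409-109742498) had 4066 and 5328 CPM. The order of Mir382 and Mir541 turned between the libraries, and neither Mir379 and Mir382 nor Mir541 and its follower Mir369 differed by more than their replicate difference. Mir369 (chr12:109743418-109743496) had 4021 and 4239 CPM. Mir379 exceeded it in both libraries, so the first and the last of this group were not equal. The 3p arm of Mir369 is known to act on AU-rich elements of messenger RNAs in growth-arrested cells.

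Below this group the levels fell in clear steps. Mir381 (chr12:109726822-109726896) had 3127 and 2941 CPM, and Mir154 (chr12:109738433-109738498) had 2250.0 and 2164 CPM. Mir1193 (chr12:109715671-109715791), which shares its 5p seed with Mir379, had 1528 and 1671 CPM. Each of these 3 differed from the next by more than the replicate difference, by 0.46, 0.47 and 0.35. Mir134 (chr12:109734139-109734209), the gene of the spine-regulating miR-134, had 1236 and 1272 CPM. Mir323 (chr12:109712508-109712593) had 1130 and 1111 CPM, and Mir300 (chr12:109724313-109724391) had 1033 and 938 CPM. Mir323 and Mir300 did not differ beyond their replicate difference.

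The remaining members were lower than Mir411 by an order of magnitude or more. Mir494, Mir543 and Mir376c stood at 816 ± 28.1, 530.3 ± 71.8 and 491 ± 29.0 CPM. Mir329, Mir679, Mir485 and Mir410 lay between 213 and 326 CPM. Mir485 is known as a regulator of synaptic vesicle protein SV2A, and Mir329, Mir487b, Mir494 and Mir495 are known from work on blood vessel growth after ischaemia. Mir667, Mir377, Mir539, Mir495, Mir412 and Mir758 lay between 137 and 182 CPM, and none of the neighbours in this run differed beyond its replicate difference. Mir666 had 79.8 and 101 CPM, Mir668 had 51.5 and 56.0 CPM, and Mir1197 had 13.9 and 12.5 CPM from 27 and 29 counts. Of the 27 pairs of neighbours in the order of the 28 detected members, 14 were separated by more than the replicate difference and 13 were not. The highest detected member exceeded the lowest 794-fold.

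A few members made up most of the cluster's counts. Mir411 alone held 19.6% and 20.9% of them. The 5 most abundant members held 64.5% ± 0.726, the first 8 held 82.6% ± 0.00531, and the first 10 held 88.1% ± 0.0393. The first 15 held 95.7%, which left little for the other 14, Mir654 among them. The composition repeated closely between the pools, with Pearson's r = 0.997 and Spearman's rho = 0.994 over the log2(CPM + 1) of 28 members. These correlations are across members of 1 cluster in shared libraries and describe no replication of a condition.

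**Figure D2:**
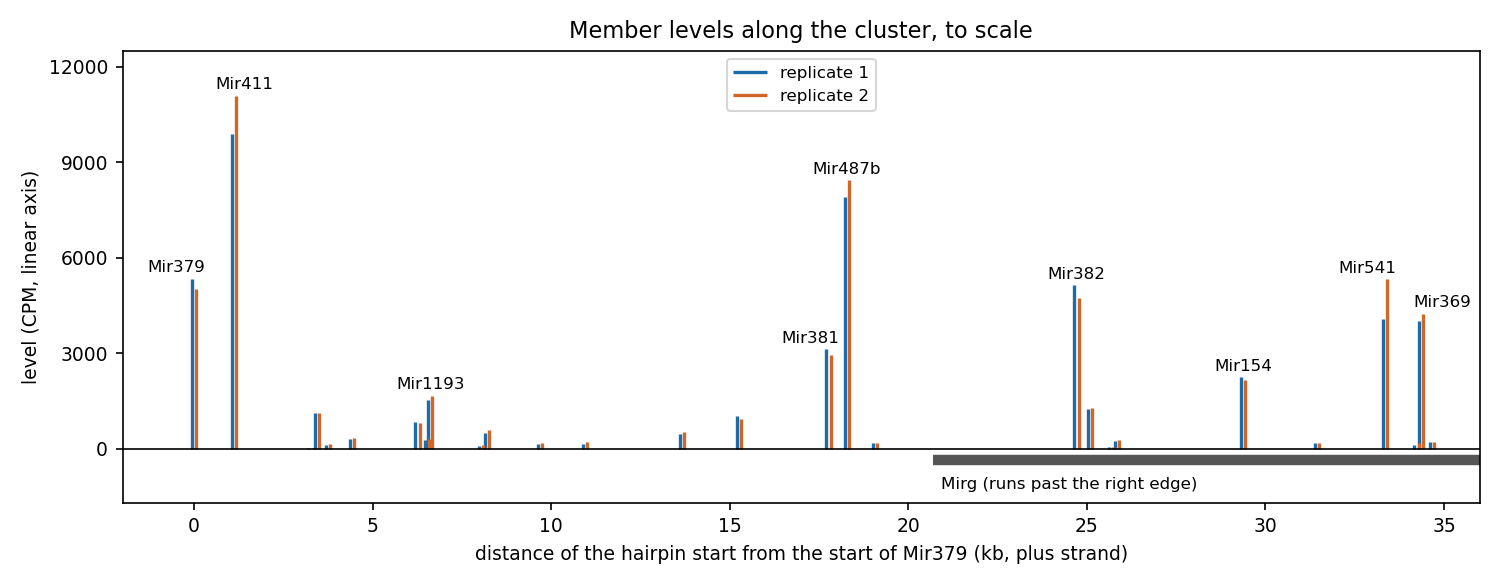
Level of each member (CPM, linear axis, replicate 1 in blue and replicate 2 in orange) at its distance in kb from the start of Mir379, with the annotated Mirg gene as a grey bar below. Tall bars stand beside short ones near both ends. There Mir379 and Mir411 at the left and Mir541 and Mir369 at the right all exceed 4000 CPM. Low bars of members fill the stretch from Mir1197 to Mir300. Genes read on the opposite strand are not drawn, and 1 of them, Mir376a, lies in this stretch at 4666 and 4394 CPM.

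Among the measured members, level did not follow position. The members span 34.7 kb on the plus strand (GRCm38, GENCODE M21), with a median gap of 752 bases between measured hairpins and gaps from 20 to 5568 bases. The annotated Mirg gene starts 20.7 kb downstream of Mir379. It holds the last 10 measured members, from Mir382 on, of which 4 lay within an exon, 4 overlapped an exon in part and 2 lay in an intron. The 19 others lie upstream of the annotated gene. The median level was 491 CPM for the 19 upstream members and 752 CPM for the 10 within Mirg, and the ranges overlapped widely. The share of all sense counts was 3.30% and 3.46% for the upstream members and 1.75% and 1.86% for those within Mirg. Over the 28 detected members the Spearman correlation of level with distance from Mir379 was -0.015 (Pearson's r = 0.07). This is a description across hairpins of 1 region, and the genes given apart are not in it.

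Genomic neighbours had a median difference in level close to that of members taken at any distance, and more of them were over 2-fold apart. The 27 pairs of neighbouring detected members differed by a median of 2.55 on the log2 scale, against 2.49 for all 378 pairs of members. Of the neighbours, 26 of 27 (96.3%) were over 2-fold apart, as were 292 of the 378 pairs (77.2%). These pairs join detected members only and pass over genes given apart, namely Mir299a, Mir380, Mir376a, Mir496a and Mir409. The widest step between such pairs lay at the start of the cluster, where Mir411 exceeded the next detected member, Mir1197, by 9.63. Mir299a and Mir380, read on the opposite strand at means of 2456 and 1454 CPM, lie between them, so this step is not one between adjacent genes. Near the other end, Mir412 had 128 and 166 CPM while Mir369, separated from it by 49 bases, had 4021 and 4239 CPM. Both lie in the same annotated gene and each overlaps an exon in part.

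Seeds tied members into few groups. The GGUAGAC pair, Mir379 and Mir1193, together with Mir411, whose miR-411-5p holds GUAGAC at bases 3 to 8, includes the first and the third most abundant members. Outside the cluster GUAGAC lay in the seeds of 3 further arms of the table (miR-7225-5p, miR-7229-5p and miR-6363), of which miR-7229-5p has the full seed of miR-411-5p. Mir7229 was not analysed here. Other seed pairs within the cluster join members of unequal level, and their 5p arms are shown with the seed in capitals.
miR-758-5p: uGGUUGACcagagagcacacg
miR-1197-5p: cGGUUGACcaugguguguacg
miR-494-5p: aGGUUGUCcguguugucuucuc
miR-410-5p: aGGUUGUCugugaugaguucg
miR-376c-5p: gUGGAUAUuccuucuauguuua
miR-376b-5p: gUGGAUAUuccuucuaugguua
Mir758 had 128 and 146 CPM where Mir1197 had 13.9 and 12.5 CPM. Mir494 had 836 and 797 CPM where Mir410 had 224 and 203 CPM. In neither pair did the values of the libraries overlap. Mir376c had 471 and 512 CPM, and its long shared run with the hairpin of Mir376b makes its level uncertain. A shared seed in 1 arm does not show that this arm was the one counted.

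Some seeds of the cluster also occur in microRNAs from elsewhere in the genome. The closest in level were Mir329 and Mir362, Mir377 and Mir672, and Mir1193 and Mir370, the last a member of the proximal Dlk1-Dio3 group. Their arms are shown with the shared seed in capitals.
miR-329-3p: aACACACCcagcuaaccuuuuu
miR-362-3p: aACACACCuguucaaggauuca
miR-377-5p: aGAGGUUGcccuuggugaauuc
miR-672-5p: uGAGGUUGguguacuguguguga
miR-1193-3p: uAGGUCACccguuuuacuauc
miR-370-5p: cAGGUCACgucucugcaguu
Mir329 had 306 and 345 CPM and Mir362 had 172 and 205 CPM. Mir377 had 164 and 185 CPM and Mir672 had 139 and 120 CPM. Mir1193 had 1528 and 1671 CPM and Mir370 had 841 and 916 CPM. In each pair the member of the distal cluster was the higher in both libraries. The reverse held for the UCACCUG seed of miR-412-3p, where Mir412 had 128 and 166 CPM and Mir1983 had 6153 and 6221 CPM. Loci sharing a seed with Mir410 (Mir344d-1, Mir344d-2, Mir344d-3, Mir344e), Mir495 (Mir1192), Mir679 (Mir7221), Mir668 (Mir467h) and Mir134 (Mir3620) had 0 counts in both libraries. The Mir344d loci share 1 mature 3p arm, so reads from them could have been set aside as placed at several positions.

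The hairpins shared sequence outside the seeds as well. Of all 7-base words, UUCGCUU occurred in the most member hairpins, 10 of 29 (34.5%), and the next words reached 7. It was searched for on the transcript strand of the 1005 hairpins of the RefSeq table, where 12 (1.19%) hold it, 10 of them members. The other hairpins with it were Mir1298 and Mir6340, and the reverse complement AAGCGAA occurred in none. In 9 of the 10 members the word runs from the last 3 to 5 bases of the 5p arm into the loop, and in Mir329 it lies before the 5p arm. A word taken as the most frequent among these members is a description of them and no test. The hairpins of the 4 most abundant members that hold it are shown with the word in capitals.
Mir487b, chr12:109727333-109727414, plus strand: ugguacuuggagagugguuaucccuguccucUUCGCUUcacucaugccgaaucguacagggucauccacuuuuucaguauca
Mir382, chr12:109733771-109733846, plus strand: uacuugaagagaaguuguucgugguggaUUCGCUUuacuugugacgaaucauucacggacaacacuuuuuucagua
Mir369, chr12:109743418-109743496, plus strand: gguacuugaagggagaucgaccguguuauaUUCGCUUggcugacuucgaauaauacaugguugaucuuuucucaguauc
Mir154, chr12:109738433-109738498, plus strand: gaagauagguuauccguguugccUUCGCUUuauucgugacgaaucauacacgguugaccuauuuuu
The 10 members with the word had a median level of 825 CPM, from 154 to 8172 CPM. The 18 measured members whose hairpin lacks it had a median of 395 CPM, from 0 to 10487 CPM. The ranges overlap almost entirely.

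The base of the stem is shared too. GGUACUU, which lies near the start of the hairpin, occurred in 5 of 29 member hairpins and in 0.995% of the 1005, and CAGUAUC, near its end, in 6 of 29 and in 1.19%. Only 3 hairpins of the table hold both words, namely Mir411, Mir487b and Mir369, all among the 6 most abundant members. These words were chosen after the hairpins and the levels had been seen. The hairpin records also differ in length, from 63 bases (Mir495) to 121 bases (Mir1193). A word at the base of the stem is missed where a record stops short of it. The record of Mir382, for example, begins with UACUU and ends with CAGUA, which are parts of these words. The counts of hairpins with the words therefore depend in part on record length. The hairpin of Mir411, at chr12:109710175-109710256 on the plus strand, is shown with both in capitals.
Mir411: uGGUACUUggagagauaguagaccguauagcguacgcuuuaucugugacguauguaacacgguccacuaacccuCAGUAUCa

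**Figure D3:**
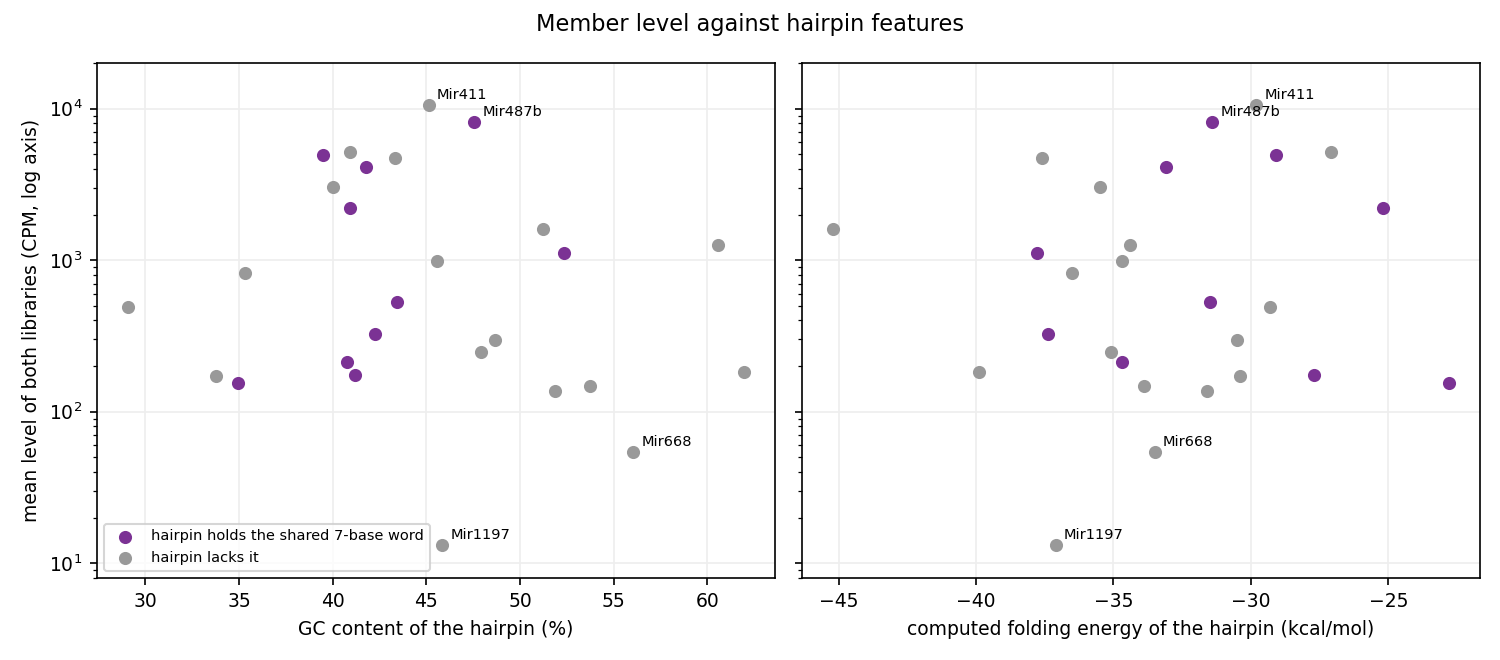
Mean level of the 27 detected members with a hairpin in the RefSeq table (CPM, log axis) against the GC content of the hairpin (left, %) and its computed folding energy (right, kcal/mol), with hairpins that hold the shared word in purple and the others in grey. The points form no slope in either panel, and purple points run from 154 to 8172 CPM.

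General features of the hairpins did not follow level. Over 27 detected members the Spearman correlation of log2(CPM + 1) was -0.19 with GC content, 0.09 with the folding energy computed by RNAfold and 0.07 with hairpin length. These features are those of the RefSeq records, from 63 bases and -22.8 kcal/mol (Mir495) to 121 bases and -45.2 kcal/mol (Mir1193). Where the records end was not checked against the processed precursors. Mature arms began with U in 24 of 56 cases (42.9%), against 41.3% of the 1738 arms in the table. The 10 measured members whose 5p arm begins with U had a median of 1427 CPM, and the 18 whose 5p arm begins with another base had 313 CPM. The ranges overlap widely, from 0 (Mir654) to 10487 CPM (Mir411) and from 13.2 (Mir1197) to 4939 CPM (Mir382). Mir485, whose 5p arm RefSeq did not hold, is in neither set. The counts do not tell the arms apart, so this contrast is over genes and was not tested.

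The pools were then compared member by member. Both summed shares lay near 5%, and the log2 ratio of replicate 2 over replicate 1 for the summed counts was 0.07 (0.06 to 0.09). The 28 members with a mean count of at least 10 had a median log2 ratio of 0.12, against 0.02 over all 363 loci that reach it. In all, 19 of the 28 (67.9%) were higher in replicate 2, against 51.2% of all loci. With the minimum raised to a mean of 100 counts it was 19 of 27 members (70.4%) against 50.6%. None of the 28 differed by over 2-fold, where 5.23% of all loci did, and none of the 27 more deeply counted members did, where 1.95% of such loci did. Levels of neighbouring loci are not independent, so these shares are descriptions of 1 cluster in 2 libraries.

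Differences between the pools were larger than counting error for many members. The counting interval of the ratio left out 0 for 16 of 28 members (57.1%), against 45.2% of all loci, and 12 of the 16 were higher in replicate 2. This interval narrows with depth, and the median level was 491 CPM for members against 183 CPM for the 363 loci. The median size of the log2 ratio, either way, was smaller for members, 0.14 against 0.18. The counts differed between the libraries by more than sampling noise over the members (chi-square 597 with 27 degrees of freedom, reads taken as independent), and both libraries were counted as separate replicates. With the coefficient of variation of 16.8% that edgeR estimated over 363 loci added to counting error, the interval left out 0 for 0 of 28 members, against 6.06% of all loci. That coefficient comes from the same 2 pools, members included, so the wider interval is a description and no independent test.

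**Figure D4:**
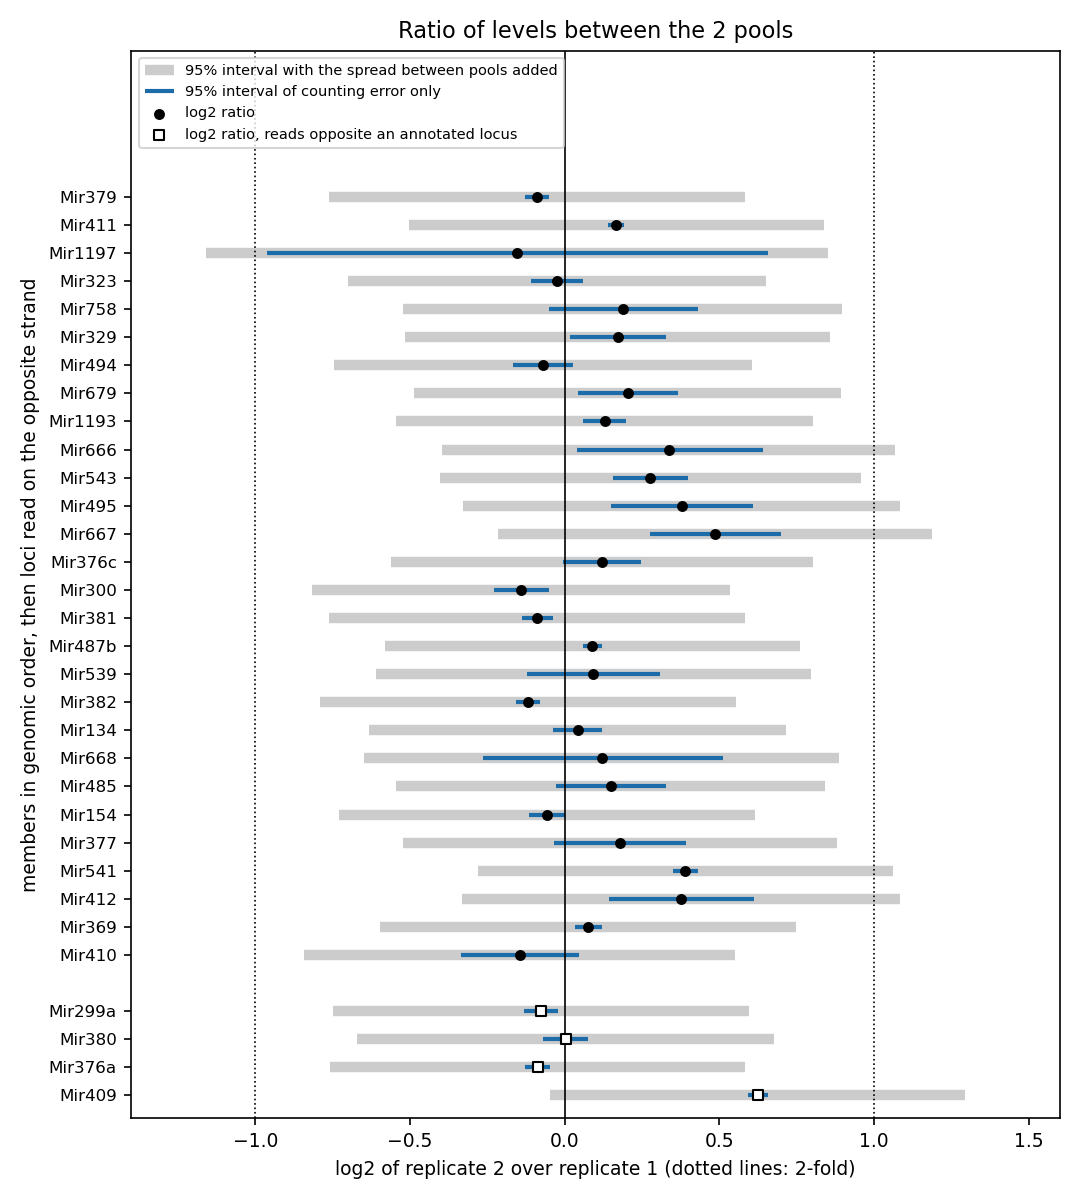
Log2 ratio of replicate 2 over replicate 1 for the 28 members with a mean count of at least 10, in genomic order, and below them for the 4 loci read on the opposite strand (squares). Blue bars are 95% intervals of counting error, grey bars add the spread between pools, and dotted lines mark 2-fold; all points lie inside the dotted lines and all grey bars cross 0.

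The highest ratios belonged to Mir667, Mir541 and Mir495. Mir667 had 151 and 212 CPM, a log2 ratio of 0.49 (0.27 to 0.70). Mir541 had 4066 and 5328 CPM, a log2 ratio of 0.39 (0.35 to 0.43). Mir495 had 134 and 174 CPM, a log2 ratio of 0.38 (0.15 to 0.61). Mir541 was the member whose counting interval lay farthest from 0, and it was the only one of the 6 most abundant members with a ratio above 0.2. The members with the next farthest intervals were Mir667 and Mir543, the latter at 479 and 581 CPM with a log2 ratio of 0.28 (0.16 to 0.40).

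The lowest ratios were small. Mir1197 had a log2 ratio of -0.16 with an interval from -0.96 to 0.66, since it rests on 27 and 29 counts. Mir410 had 224 and 203 CPM, a log2 ratio of -0.15 (-0.34 to 0.05), and Mir300 had 1033 and 938 CPM, a log2 ratio of -0.14 (-0.23 to -0.05). The ratios had a Spearman correlation of -0.30 with level over 28 members. By position, all 5 members with a ratio above 0.3 lay in 2 stretches. This limit was chosen after the ratios had been seen, and the grouping was not tested. With the spread between pools added, the interval of each of these members crossed 0. From Mir666 to Mir667 the 4 measured members had 0.34, 0.28, 0.38 and 0.49, and Mir541 and Mir412 near the distal end had 0.39 and 0.37. Mir369 and Mir410, directly after them, had 0.08 and -0.15.

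Markers of other cell types also differed between the pools. The tissue's own markers were present in both, with 7 of 7 mesenchyme loci and 7 of 7 epithelium loci at 10 counts or more. The summed level was 52455 and 55790 CPM for mesenchyme, and 33088 and 29540 CPM for epithelium. The 11 measured neural loci, of which 7 reached the minimum, summed to 2494 and 2006 CPM, with Mir124a-3 at 0 in both. The 8 muscle loci, of which 5 reached it, summed to 628 and 1494 CPM, with Mir133a-1 and Mir133a-2 at 0 in both. Of those 5, 4 were higher in replicate 2. The erythroid pair did not move together, since Mir451a had 218 and 547 CPM and Mir144 had 46.4 and 45.7 CPM. Leukocyte loci summed to 564 and 672 CPM, and endothelial Mir126a stood at 39037 and 40424 CPM. The part of these shifts in the ratios of the cluster's members was not tested. In bulk tissue, fewer cells of a type and less RNA per cell cannot be told apart.

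Genes of the cluster that the tables do not list on their own strand appeared as reads opposite to minus-strand loci, and they are given apart. All 29 measured members had 0 opposite-strand counts in both libraries, and 4 overlapping loci held 47.2% and 52.8% of all opposite-strand counts in the tables. The locus Gm24321 (chr12:109743158-109743237) had 0 sense counts, and 11913 and 21931 opposite-strand counts. These lie on the strand of Mir409 (chr12:109743158-109743236) and equal 6135 and 9454 on the CPM scale of the sense total, a log2 ratio of 0.62 (0.59 to 0.66). With the spread between pools the interval was -0.05 to 1.29. At the mean of both libraries Mir409 would have 2 members above it. In replicate 2 its 9454 exceeded Mir487b at 8426 CPM, and only Mir411 stood higher.

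The other overlapping genes were abundant and steadier. Reads opposite Gm25252 (chr12:109723756-109723875), on the strand of Mir376a, numbered 9061 and 10193, or 4666 and 4394 CPM. Those opposite Mir299b (chr12:109710645-109710693), on the strand of Mir299a, numbered 4895 and 5548, or 2521 and 2392 CPM, while Mir299b itself had 12 and 31 sense counts. Those opposite Gm25750 (chr12:109711779-109711890), on the strand of Mir380, numbered 2820 and 3377, or 1452 and 1456 CPM. Their log2 ratios were -0.09, -0.08 and 0.00. Arms of Mir409, which had the highest ratio between pools of any gene in the cluster, and of Mir380 are shown with the seed in capitals.
miR-409-5p: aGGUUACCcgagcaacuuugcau
miR-409-3p: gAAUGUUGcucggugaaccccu
miR-380-5p: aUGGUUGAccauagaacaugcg
miR-380-3p: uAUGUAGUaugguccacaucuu
Mir409 lies between Mir541 and Mir412, the members of the distal stretch with ratios of 0.39 and 0.37. Neither seed of Mir409 occurs among the members' arms that RefSeq held. With all 4 genes credited, the cluster's share became 6.70% of a total that includes these reads. Further loci outside the list were low. Mir496a, in the same stretch, had 167 and 173 CPM, and Mir3072, downstream of Mir410, had 94.8 and 103 CPM.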

How the data were processed

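Small-RNA libraries of 2 pools were compared within 1 group. Per the text deposited with the files, the authors derived gene quantifications from alignments to mm10 with GENCODE M4. The aligner, the counter and their settings are not given in the sources used here. The deposited values are raw counts per microRNA locus, without normalization, in 3 columns (both strands, sense, opposite strand), and the 4 summary lines were left out of totals. They held the reads that were unmapped, at several positions or at no locus, and only 40.8% and 34.2% of reads counted for a sense locus.

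Symbols and positions came from GENCODE M21 (GRCm38), matched on the stable identifier, for 1894 of 1973 loci. The 79 others held 4 counts in all. Sequences came from RefSeq. From the sense counts, CPM, exact binomial intervals and log2 ratios with 0.5 counts added were computed (Python 3.11.15, scipy 1.17.1). A level of 0 was given the limit that 3 counts allow. The spread between pools is edgeR's common dispersion (4.0.16, R 4.3.3), and folding energies are from RNAfold 2.7.2. Ratios and dispersion were tested on simulated data. The labels name no molecular identifiers, so intervals cover counting error only.

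Alternatives were other strand columns, totals, count minimums, pseudocounts, edgeR TMM and DESeq2 (1.42.0) factors, and single libraries. Named genes were the 12 most abundant members, members sharing a seed, the 3 highest and 3 lowest ratios, the 3 whose interval lay farthest from 0, undetected members and the 4 opposite-strand loci. Members and lists were chosen with earlier results of these data known. The hairpin words, shared runs, neighbour differences and the class of loci with a mean of 100 counts were chosen after values or sequences had been seen. Other members are given by range or by value for completeness.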

Additional observations from a re-analysis of the deposited data

Results flagged for a closer look

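Signal appeared outside the sense counts, at loci annotated on the minus strand within the cluster. Reads opposite Mir299b, on the strand of Mir299a, numbered 4895 in replicate 1 and 5548 in replicate 2. Reads opposite Gm25750, on the strand of Mir380, numbered 2820 and 3377. Reads opposite Gm25252, on the strand of Mir376a, numbered 9061 and 10193. Reads opposite Gm24321, on the strand of Mir409, numbered 11913 and 21931. Each count is above 3, the upper limit on the level that an observed count of 0 allows. Among all loci, 20 had over 3 opposite-strand counts in both libraries.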

How the results depend on the processing

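The cluster's mean share of 5.19% moved by more than the difference between libraries under 2 alternatives. It was 6.70% with the opposite-strand reads of Mir299a, Mir380, Mir376a and Mir409 credited, and 9.09% with the 10 most abundant loci left out of the total, and both follow from what was added or removed. It was 5.02% irrespective of strand, and 5.05% and 5.32% in single libraries. The number of detected members was 28 or 27 under all alternatives run. With edgeR TMM or DESeq2 factors, or other count minimums, 19 members were higher in replicate 2 and 0 passed 2-fold. The median log2 ratio lay between 0.10 and 0.12, and the share of the 5 most abundant members in single libraries was 64.0% and 65.1%. Irrespective of strand only the total grew, since no member had opposite-strand counts, so all detected levels fell by a similar factor. This fall exceeded the SD, which was small for their level, in Mir323, Mir134 and Mir154, to 1085, 1215 and 2138 CPM. It did not for the other 26 levels. No paired analysis was possible because there is only 1 group. Ratios between pools need both libraries, so no library could be left out of them. Depth limits Mir654 and Mir1197, and arms, isoforms and edited reads cannot be told apart in counts per gene.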
